A study of Mus musculus with 2 samples.

Results

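Microglia low in immediate early genes were the microglia whose mRNA held least of a group of 10 fast-response transcripts, and they numbered 3758 of 18796 gated microglia in the joined libraries. The cells were selected on measured values: in each library the 20% with the lowest share of UMIs (unique molecular identifiers, 1 per captured transcript molecule) from Fos, Fosb, Jun, Junb, Egr1, Ier2, Atf3, Zfp36, Btg2 and Nr4a1. This gave 2099 of 10498 gated Control cells and 1659 of 8298 gated FGR cells. The gate asked for at least 1500 UMIs, at least 200 genes, at most 10% mitochondrially coded UMIs and at least 50 UMIs over C1qa, C1qb, C1qc, Csf1r, P2ry12, Cx3cr1 and Tmem119.

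The study compared hippocampal microglia of Control mice with those of mice with fetal growth restriction (FGR) with 10x Genomics 3′ libraries of single cells. Both groups carried the reporter allele Tmem119-tdTomato+/- and were 3 weeks old. In both, the cells had been sorted as Tmem119 positive, so the set is limited to cells positive in that sort and with mRNA of the gate genes. Each group was 1 library, and neither the number of animals in it nor the way growth was restricted is given in the sources used here. No difference below has a replicate check or a test, "higher" and "lower" describe these 2 libraries, and the 95% intervals cover counting error only.

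Immediate early genes are transcribed within minutes of a stimulus without new protein synthesis, and many encode transcription factors (FOS, JUN, EGR1) or proteins that shorten the response, such as the mRNA-decay factor ZFP36. Microglia, the resident macrophages of the brain, are known to induce them during tissue dissociation and sorting as well as during signalling in the animal. The cells with the lowest early gene share are therefore a range at 1 end of a continuous score, not a cell type.

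The cyclic AMP response element (CRE) is a binding site of CREB and ATF proteins that early promoters can carry, and the glucocorticoid response element (GRE) is that of the glucocorticoid receptor. The promoters below, the 250 bases before the transcription start in the RefSeq table (GRCm38.p6), are shown because they belong to genes whose level either set the membership (Fos, Atf3, Btg2) or differed between the libraries inside the set (Dusp1, Sgk1, Txnip). Capitals mark a CRE core (TGACGT, searched on both strands, overlapping matches joined) in the first 4 and a GRE (GNACA, any 3 bases, then TGTNC) in the last 2.
Fos, chr12:85473640-85473889, plus strand: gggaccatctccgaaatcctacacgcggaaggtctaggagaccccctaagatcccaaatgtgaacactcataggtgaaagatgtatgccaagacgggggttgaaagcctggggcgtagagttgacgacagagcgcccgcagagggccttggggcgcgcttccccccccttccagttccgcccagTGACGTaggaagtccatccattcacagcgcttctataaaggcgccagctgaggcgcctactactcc
Atf3, chr1:191183334-191183583, minus strand: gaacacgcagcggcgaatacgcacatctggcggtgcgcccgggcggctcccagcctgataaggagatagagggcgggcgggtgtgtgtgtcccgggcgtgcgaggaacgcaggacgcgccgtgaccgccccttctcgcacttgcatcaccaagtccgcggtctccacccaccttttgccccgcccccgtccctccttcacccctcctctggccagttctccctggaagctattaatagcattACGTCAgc
Btg2, chr1:134079156-134079405, minus strand: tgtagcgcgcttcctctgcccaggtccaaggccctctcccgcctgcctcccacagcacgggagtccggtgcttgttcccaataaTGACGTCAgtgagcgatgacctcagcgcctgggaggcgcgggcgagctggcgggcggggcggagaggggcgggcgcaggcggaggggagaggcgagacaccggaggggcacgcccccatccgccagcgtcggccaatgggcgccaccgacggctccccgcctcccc
Dusp1, chr17:26508473-26508722, minus strand: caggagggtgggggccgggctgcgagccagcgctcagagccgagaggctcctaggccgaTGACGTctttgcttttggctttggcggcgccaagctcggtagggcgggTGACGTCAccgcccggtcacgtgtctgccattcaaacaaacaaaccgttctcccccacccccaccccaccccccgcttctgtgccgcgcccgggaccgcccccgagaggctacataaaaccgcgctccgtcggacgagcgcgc
Sgk1, chr10:21993640-21993889, plus strand: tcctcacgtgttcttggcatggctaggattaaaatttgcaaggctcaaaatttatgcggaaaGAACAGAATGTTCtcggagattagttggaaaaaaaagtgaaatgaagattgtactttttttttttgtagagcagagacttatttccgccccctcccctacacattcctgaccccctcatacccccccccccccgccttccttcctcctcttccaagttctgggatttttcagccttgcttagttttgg
Txnip, chr3:96557707-96557956, plus strand: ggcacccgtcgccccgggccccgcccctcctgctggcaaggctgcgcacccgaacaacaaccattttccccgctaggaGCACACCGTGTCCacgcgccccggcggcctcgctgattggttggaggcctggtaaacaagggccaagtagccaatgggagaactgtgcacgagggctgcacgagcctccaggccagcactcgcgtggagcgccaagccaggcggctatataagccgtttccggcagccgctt
Of the 10 early genes of the rule, 8 had a promoter in the table and 3 of those held the CRE core, which 6.47% of all 32851 promoters of this length held. Of the 7 glucocorticoid response genes that were higher in the FGR cells, 2 held a GRE in at least 1 listed promoter, and 0.387% of all promoters did. The counts are per gene and the shares per promoter, so they are not in the same unit. No rule gene's promoter held a GRE, and 2 of the 7 glucocorticoid genes held a CRE core. The AP-1 motif (TGACTCA or TGAGTCA) was in none of either group and in 4.46% of all promoters, and the CArG box, the site of serum response factor, was in 1 of the 8, none of the 7 and 1.47% of all. Sgk1, Tsc22d3 and Per1 have more than 1 listed start, and of those of Sgk1 only the promoter printed here held a GRE. A match is a string of letters and not a shown binding site.

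The early gene share was a single spread-out distribution in each library, with no gap at the limit. The highest share inside the set was 1.23073% (Control) and 1.59564% (FGR), and the lowest share outside it was 1.23077% and 1.59574%. Within 10% of the limit lay 791 Control cells (7.53% of those gated) and 537 FGR cells (6.47%). The median share was 0.863% in the Control set and 1.08% in the FGR set. The FGR set was thus drawn up to a higher share, and 1064 of its 1659 cells (64.1%) lay at or under the Control limit. Only 1 Control cell and 4 FGR cells held none of the 10 transcripts.

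**Figure D1:**
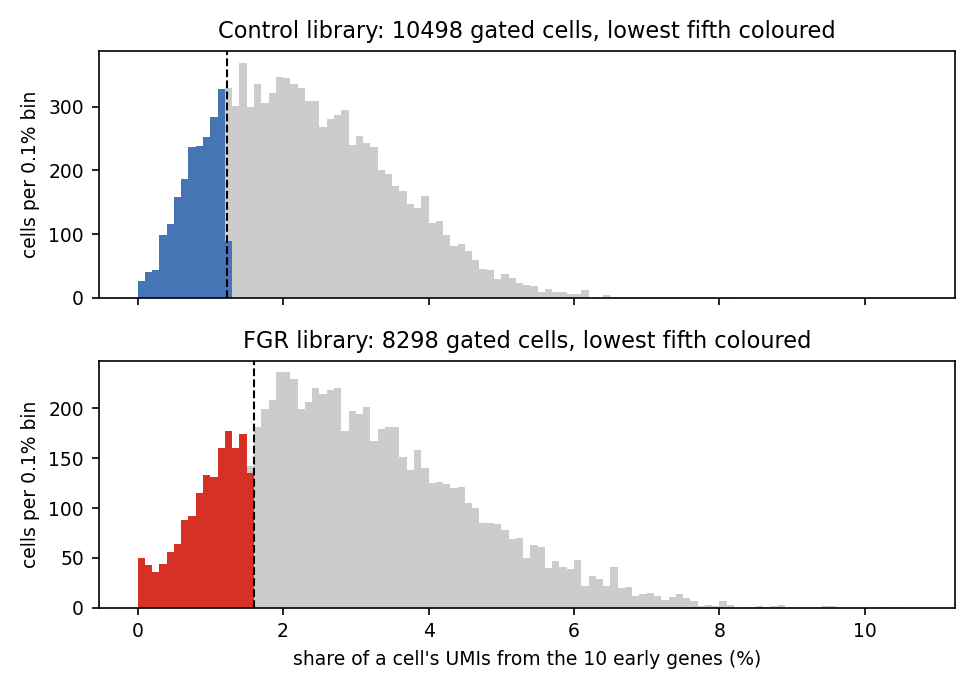
Histograms of the share of each gated cell's UMIs that came from the 10 early genes, in percent, with the Control library above and the FGR library below; coloured bars are the lowest 20% of cells and the dashed line is the highest share inside the set (1.23% and 1.60%). Both distributions run through the limit without a gap, and the FGR distribution reaches higher shares.

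All 12 microglial markers reached 50 CPM in the set in both libraries, with sums of 28984 and 28335 CPM. P2ry12, Tmem119, Cx3cr1 and Csf1r among them are gate genes, so the gate fixed in part that they were present, while Slc2a5 and P2ry13 were not used to choose cells. Slc2a5, a fructose transporter that in brain is largely microglial, stood at 220.7 CPM (the gene's UMI count scaled to counts-per-million of all UMIs in the summed cells) in the Control set and 233.6 CPM in the FGR set. P2ry13, a purinergic receptor, stood at 504.7 and 436.4 CPM, and P2ry12, the ADP receptor of ramified microglia, at 3703 and 2988 CPM. Depth was alike between the sets, with medians of 4618 and 4490 UMIs per cell, and so was the mitochondrially coded share, at 2.51% and 2.20%. In the cells outside the set these medians were 4696 and 5079 UMIs and 1.82% and 1.85%.

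Markers of other cell types were low in the set, though not always lower than in the other gated cells. Summed levels (Control, then FGR) were 819 and 766 CPM over 10 oligodendrocyte genes, of which Trf alone gave 627 and 654 CPM, and 213 and 317 CPM over 10 astrocyte genes, of which Slc1a3 gave 161 and 299 CPM. The 12 neuronal markers summed to 66.3 and 36.1 CPM, the 10 vascular markers to 62.9 and 36.1 CPM, and the 5 erythrocyte genes to 86.1 and 12.3 CPM. Border macrophage markers summed to 246 and 324 CPM, and 1 of the 8 reached 50 CPM in each library. Per cell the median was 3 UMIs of the oligodendrocyte list, 1 of the astrocyte list and 0 of the neuronal, vascular and erythrocyte lists in both sets. The most in 1 cell, over the oligodendrocyte, astrocyte, neuronal and vascular lists, was 304 UMIs (Control) and 80 UMIs (FGR). Barcodes seen in both libraries numbered 2 in the set and 30 among the gated cells.

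By the rule itself the 10 early genes were lower in the set than in the other gated cells, and these values describe the choice of cells. They summed to 8345 CPM in the Control set against 26460 CPM in the other Control cells, and to 10367 against 34209 CPM in the FGR library. Fos stood at 0.174 and 0.154 of its level in the other cells (Control, then FGR), Egr1 at 0.201 and 0.156, and Junb, the least lowered, at 0.478 and 0.413.

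The set was also set beside the other gated cells over all genes. A gene was counted when it reached 50 CPM on at least 1 side and its ratio cleared 1.5-fold with the whole 95% interval, upward or downward, in both libraries. Of 3347 genes measured, 62 (1.85%) were lower in the set and none (0%) was higher. The contrast chose the cells, so these counts are a description. Of the 62, 10 are the genes of the rule, 14 are among 21 other early response genes measured, and 8 are among 19 measured NF-kB targets and cytokines.

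Of the 10 lowest genes outside the rule, 7 belong to the list of other early response genes. Sertad1, a cyclin-dependent kinase cofactor, stood at 0.183 (Control) and 0.297 (FGR) of the other cells' level. Klf2, a zinc-finger factor that restrains macrophage activation, stood at 0.261 and 0.205, and Dusp1, the phosphatase that switches off p38 and JNK kinases, at 0.260 and 0.324. Nfkbiz, a nuclear IkB protein, followed with 0.302 and 0.262, and Dnajb1, a co-chaperone of HSP70, with 0.300 and 0.433. Marcksl1, Csrnp1, Egr2, Klf4 and Ppp1r15a lay between 0.284 and 0.401 in either library. Neat1, a nuclear long noncoding RNA, was also lower, with 0.386 and 0.447.

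Genes of protein synthesis and respiration lay a little above the other cells' level in the set. The median log2 ratio of the set over the other cells was 0.41 (Control) and 0.20 (FGR) for 28 ribosomal protein genes. For 13 mitochondrially coded genes it was 0.39 and 0.25, and for 24 nuclear genes of oxidative phosphorylation 0.34 and 0.29. For the 35 homeostatic surface and secreted genes of microglia it was 0.08 and 0.12, beside -0.01 and 0.06 over all genes measured. P2ry12 was 1.11 times its level in the other cells in both libraries, Slc2a5 1.10 and 1.11 times, and P2ry13 1.09 and 1.18 times. Tmem119 stood at 0.964 and 1.05 times and Cx3cr1 at 0.982 and 1.04 times. The list of activated and disease-associated microglial genes had medians of 0.04 (Control) and 0.30 (FGR).

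**Figure D2:**
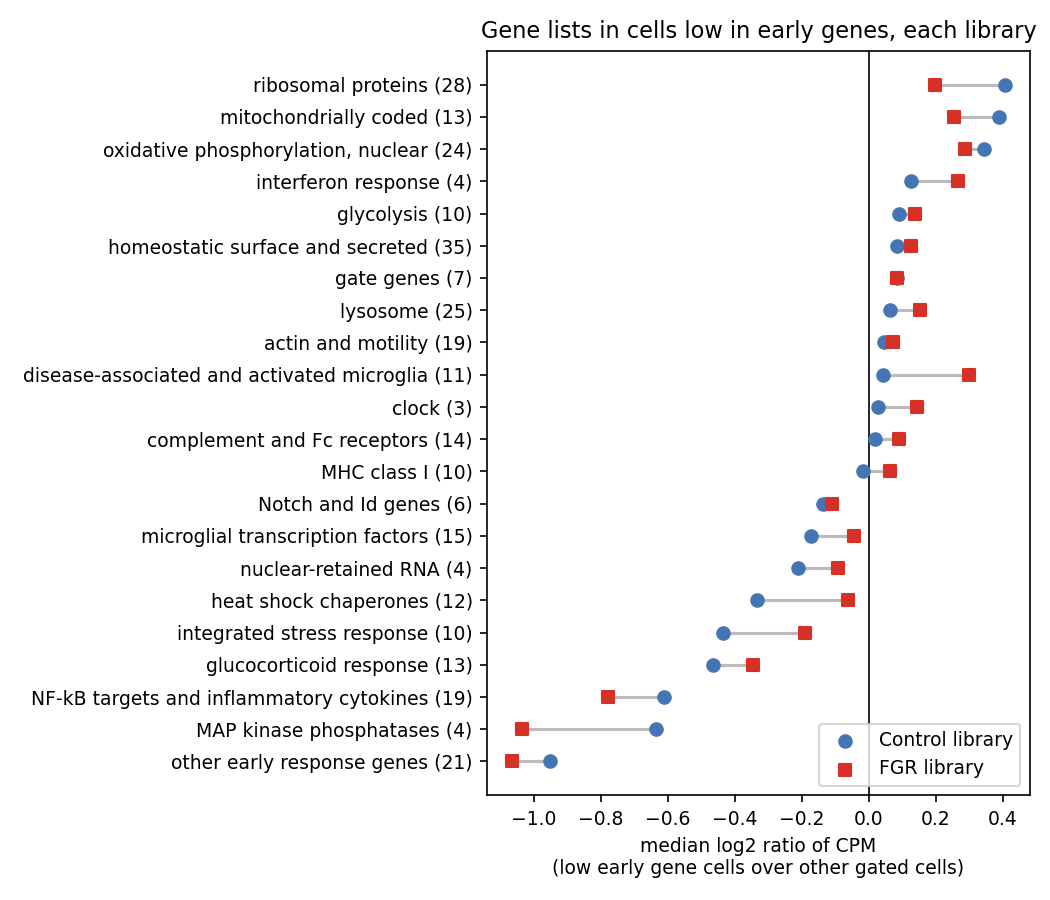
Median log2 ratio of CPM in the low early gene cells over the other gated cells, for each gene list (genes measured in brackets) in the Control library (circles) and the FGR library (squares). Other early response genes lie near -1 (-0.95 and -1.06), and ribosomal protein genes lie highest in the Control library (0.41, against 0.20 in the FGR library).

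Within the set, the FGR and Control cells were close for nearly all genes. Of 3515 genes measured, 68 (1.93%) were higher in the FGR cells and 13 (0.37%) lower by the same 1.5-fold interval rule. The counts include 4 higher genes (Fos, Fosb, Atf3 and Zfp36) and 1 lower gene (Egr1) whose values chose the cells. The ratio lay between 1/1.5 and 1.5 for 96.98% of genes, and the median log2 ratio was -0.02. In the other gated cells 86 genes were higher and 54 lower of 3514, with a median of -0.07. The lists had 56 of the 68 and 86 higher genes in common, and 11 of the 13 and 54 lower genes, and no gene passed in opposite directions. Both sets of cells come from the same 2 libraries, so this overlap is no second measurement of the difference.

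After the small linker histone list, glucocorticoid response genes had the largest share of measured members higher in the low early gene cells of the FGR library. Of its 16 members 12 were measured, 7 were higher and none lower, beside 1.93% higher and 0.37% lower over all genes. The median log2 ratio of the list was 0.84, beside -0.02 over all genes. The list had been seen to differ in these libraries when it was chosen, so its count is not independent evidence of a direction. Ddit4 (chr10:59949669-59951834, minus strand), an inhibitor of mTORC1, stood at 40.2 CPM in the Control set and 287.5 CPM in the FGR set, a ratio of 7.15 (interval 6.43 to 7.96). Dusp1 (chr17:26505590-26562128, minus strand) stood at 176.4 and 1012 CPM, a ratio of 5.74 (5.45 to 6.04). Tsc22d3 (chrX:140539528-140600659, minus strand), which encodes the anti-inflammatory protein GILZ, stood at 105.1 and 380.0 CPM, a ratio of 3.62 (3.37 to 3.88). All 3 genes were wider apart here than in the other gated cells, where the ratios were 5.57, 4.604 and 2.88. With both libraries held to the Control limit of the early gene share, Dusp1 had a ratio of 4.38, under that 4.604. Ddit4 (7.10) and Tsc22d3 (3.41) stayed above theirs.

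The other 4 were Sgk1, Fkbp5, Per1 and Txnip. Sgk1, a kinase acting on ion channels, stood at 603.6 CPM in the Control set and 1409 CPM in the FGR set, a ratio of 2.33. Fkbp5, the co-chaperone that lowers hormone binding by the glucocorticoid receptor, stood at 222.4 and 497.6 CPM, a ratio of 2.24. Per1, a clock repressor, stood at 56.4 and 108.7 CPM (1.93), and Txnip, an inhibitor of thioredoxin, at 871 and 1446 CPM (1.66). With both libraries held to the Control limit of the early gene share, Txnip had a ratio of 1.55 and did not pass, which left 6 of the 12 higher.

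Nr3c1, which encodes the receptor itself, was at 219.3 CPM in the Control set and 220.3 CPM in the FGR set, a ratio of 1.005 (0.943 to 1.07). Cebpd, Mt1, Cdkn1a and Sesn1 had ratios of 1.18 to 1.37 and did not pass the rule. Errfi1 (42.4 and 45.1 CPM), Klf9 (2.25 and 7.30 CPM), Mt2 (8.40 and 3.90 CPM) and Zbtb16 (0.391 and 0.378 CPM) were under 50 CPM on both sides. The list was thus split between strongly and weakly differing members, with the same receptor mRNA level on both sides.

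**Figure D3:**
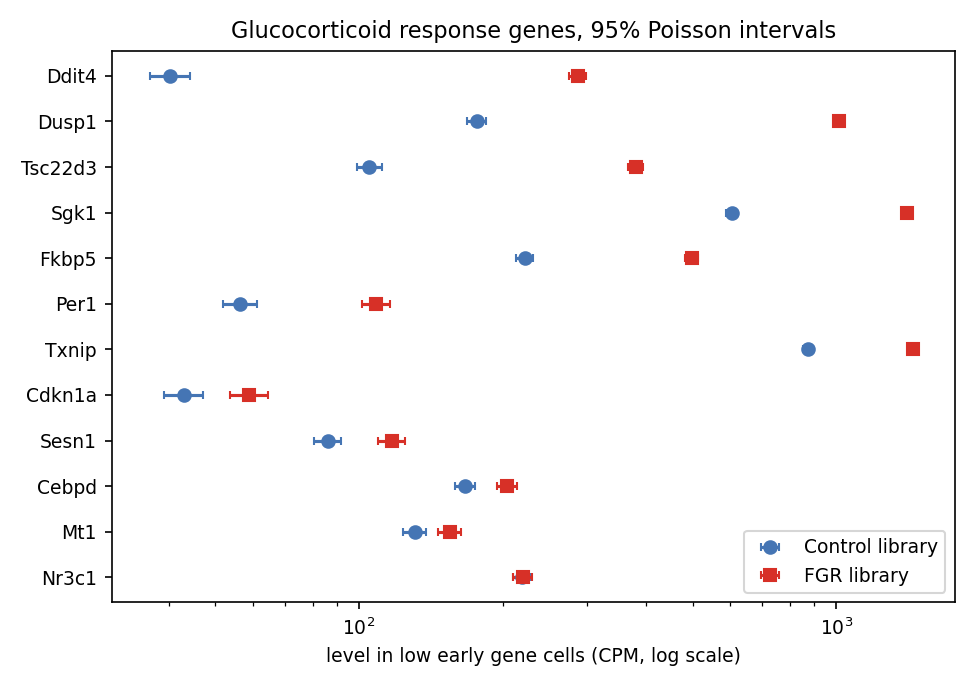
Level of the 12 measured glucocorticoid response genes in the low early gene cells, in CPM on a log axis, with 95% Poisson intervals, for the Control library (circles) and the FGR library (squares). Ddit4, Dusp1 and Tsc22d3 are furthest apart (ratios 7.15, 5.74 and 3.62) and the 2 points of Nr3c1 coincide (219.3 and 220.3 CPM).

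The 10 early genes of the rule did not share 1 ratio between the libraries. Their summed share chose the cells, up to a higher limit in the FGR library. Their ratios in the set are therefore in part a description of that choice. Fos stood at 411 CPM in the Control set and 779 CPM in the FGR set (ratio 1.897), Fosb at 136.7 and 246.1 CPM (1.80), and Atf3 at 147.3 and 319.3 CPM (2.17). Zfp36 stood at 1078 and 1710 CPM (1.59). These 4 were higher by the rule of size, while Btg2, Jun and Junb had ratios of 1.46, 1.14 and 1.13 and did not pass. Ier2 had a ratio of 0.907, and Nr4a1 was under 50 CPM on both sides (22.7 and 41.9 CPM). Egr1 went the other way, with 898.6 CPM in the Control set and 528.9 CPM in the FGR set, a ratio of 0.589 (0.567 to 0.611) against 0.757 in the other cells.

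The limit of the early gene share bears directly on these values, since it was higher in the FGR library. With both libraries held to the Control limit, the ratio of Fos was 1.28, of Fosb 1.31, of Atf3 1.48 and of Zfp36 1.25, and none of the 4 passed the rule. Egr1 then had a ratio of 0.429, and Jun (0.883), Junb (0.909) and Ier2 (0.662) also lay below 1. The common limit leaves out the FGR cells of the set with the highest early gene share. The fall of the rule genes' ratios from those of the whole set is therefore bound to the choice of cells. Egr1 and Ier2 also lay below 1 without the common limit. Their ratios were 0.589 and 0.907 in the set and 0.757 and 0.917 in the other gated cells. Dusp1 had a ratio of 4.38, under its 4.604 in the other gated cells. Ddit4 kept a ratio of 7.10, Tsc22d3 of 3.41 and Hes1 of 0.194. In all, 51 genes were then higher, 48 of them among the 68, and 19 were lower, the 13 among them. The median log2 ratio of the glucocorticoid response list was 0.70 under the common limit and that of the other early response genes was 0.02.

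Among other early response genes, which did not enter the share, 16 of 35 were measured, 4 were higher and none was lower. That compares with 1.93% higher and 0.37% lower over all genes. The median log2 ratio of the list was 0.20, beside -0.02 over all genes. Under the common limit 4 were higher and 1, Ier3, was lower (0.614). The 4 were Dusp1, given above, Klf4, Rgs1 and Id2. Klf4, a zinc-finger factor of macrophage polarisation, stood at 114.7 CPM in the Control set and 242.4 CPM in the FGR set (2.11). Rgs1, which dampens G-protein signals of chemokine receptors, stood at 556.6 and 1054 CPM (1.89). Id2, an inhibitor of basic helix-loop-helix factors, stood at 93.1 and 309.1 CPM (3.32). Klf2, Ppp1r15a and Dusp6 had ratios of 1.18, 1.08 and 0.969 and did not pass.

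Targets of NF-kB were divided. Of 27 members 19 were measured, 7 were higher and none lower, beside 1.93% higher and 0.37% lower over all genes. The median log2 ratio of the list was 0.11, beside -0.02 over all genes. Under the common limit 5 were higher and 1, Il1a, was lower. Feedback inhibitors of the pathway were among the 7. Nfkbia, which holds NF-kB in the cytoplasm, stood at 404.5 CPM in the Control set and 1136 CPM in the FGR set (2.81), and Tnfaip3, the ubiquitin-editing enzyme A20, at 56.1 and 125.6 CPM (2.24). Cd83, a surface protein of activated myeloid cells, stood at 78.0 and 210.4 CPM (2.70).

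The chemokine genes Ccl3 (669 and 1044 CPM, 1.56) and Ccl4 (1361 and 2797 CPM, 2.05) also passed, as did the chemokine-binding receptor gene Ccrl2 (92.0 and 175.2 CPM, 1.904). Under the common limit the ratios of Ccl3 and Ccrl2 were 1.39 and 1.57 and did not pass. Il1a (90.1 and 61.8 CPM), Ccl2 (116.7 and 88.7 CPM) and Icam1 (206.8 and 157.4 CPM) had ratios of 0.687, 0.760 and 0.761 and did not pass. Under the common limit the ratio of Il1a was 0.538 (0.465 to 0.621), which passed as lower. The higher members thus included both feedback inhibitors and chemokines, while 12 of the 19 did not pass in either direction.

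Cxcl10, a chemokine gene inducible by interferon, stood at 20.2 CPM in the Control set and 83.7 CPM in the FGR set, a ratio of 4.14 (3.54 to 4.87). Few cells carried it: of its 665 UMIs in the FGR set 145 came from 1 cell, and 95.9% came from 5% of the cells.

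Linker histone genes were all higher among those measured, beside 1.93% of all genes. Hist1h1c stood at 52.3 CPM in the Control set and 220.8 CPM in the FGR set (4.22), Hist1h1d at 24.8 and 100.2 CPM (4.04), and Hist1h1e at 125.4 and 300.1 CPM (2.39). They encode H1 proteins that bind DNA between nucleosomes, and 3 of the 7 members were measured. The proliferation list summed to 331 CPM in the Control set and 359 CPM in the FGR set, and neither of its 2 measured members, Hmgb2 (1.17) and Stmn1 (1.16), passed.

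Among the remaining widest differences were genes of signalling and adhesion. Rcan1, an inhibitor of calcineurin, stood at 39.0 CPM in the Control set and 140.5 CPM in the FGR set (3.61). Adrb1, the beta-1 adrenergic receptor, stood at 63.4 and 223.5 CPM (3.53), and Sdc4, a heparan sulfate proteoglycan, at 19.7 and 60.6 CPM (3.07). The predicted gene Gm22146, named after its value was seen, was furthest apart, with 6.64 and 77.1 CPM (11.6). It is annotated as antisense (chr17:28446500-28456457, plus strand) and lies inside the span of Fkbp5 (chr17:28399094-28517527, minus strand), given above as higher. Without cells holding at least 5 UMIs of other cell types' markers, Sdc4 (2.03) and Csf1 (1.81) no longer passed the rule.

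Genes lower in the FGR set were fewer. Hes1 (chr16:30064384-30067796, plus strand), a transcriptional repressor of the Notch pathway, stood at 316.1 CPM in the Control set and 59.6 CPM in the FGR set, a ratio of 0.188 (0.171 to 0.208). Hes1 differed more here than in the other gated cells, where the ratio was 0.296. Of the other Notch and Id genes measured, Id2 was higher, as given above, and Rbpj (1.13) and Maml2 (1.13) did not pass. Dusp7, a phosphatase of ERK, stood at 218.3 and 106.2 CPM (0.486), and Rsrp1, an arginine- and serine-rich protein, at 586 and 296.2 CPM (0.505).

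Other lower genes lay nearer to 1. Enc1, an actin-binding adaptor, had a ratio of 0.511, Hhex, a homeobox factor, 0.548, and Cdk5r1, the activator of the kinase CDK5, 0.559. Tubb2a, a beta-tubulin, had a ratio of 0.597, the cold-inducible RNA-binding protein gene Rbm3 0.598 and the ubiquitin ligase gene Mylip 0.633. Mylip and Tubb2a lay close to the limit and did not pass under 8 and 6 of the 17 processing alternatives. Without cells holding at least 5 UMIs of other cell types' markers Enc1 (0.573) and Rbm3 (0.631) did not pass either. The uncharacterised transcript G530011O06Rik, named after its value was seen, stood at 68.2 and 6.67 CPM (0.0979).

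The lower list also held genes of other cell types. Mbp, the myelin basic protein of oligodendrocytes, stood at 82.3 CPM in the Control set and 36.5 CPM in the FGR set (0.444), and Hbb-bs, a haemoglobin chain of red cells, at 50.9 and 5.16 CPM (0.101). Barcodes with 10 to 100 UMIs, taken as a sample of free RNA, carried 6226 and 961 CPM of Mbp and 1977 and 632 CPM of Hbb-bs. After subtraction of free RNA the ratio of Mbp was 0.892 and no longer passed. The ratio of Hbb-bs was then 0.0201, further from 1, and it did not pass. Before subtraction its Control level lay just above the minimum of 50 CPM that a call needs. In the Control set 150 of 521 UMIs of Hbb-bs came from 1 cell. For Dusp1 the same barcodes carried 673 and 3118 CPM, and its ratio after subtraction was 5.78.

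Homeostatic microglial genes did not differ between the sets by the 1.5-fold interval rule. All 35 members were measured and none passed in either direction, beside 1.93% higher and 0.37% lower over all genes. With shares that low, none of 35 says little about the list itself. The median log2 ratio was 0.04, beside -0.02 over all genes. The furthest from 1 were Crybb1, a crystallin (639.7 and 434.1 CPM, 0.679), P2ry6, a UDP receptor (240.0 and 304.9 CPM, 1.27), Ltc4s, leukotriene C4 synthase (785.4 and 624.8 CPM, 0.795), and Sparc, a secreted matrix protein (5215 and 4188 CPM, 0.803). P2ry12 had a ratio of 0.807 (0.794 to 0.820) and P2ry13 of 0.865 (0.828 to 0.903). These intervals lie below 1, as do those of Crybb1 and Sparc. Slc2a5 had a ratio of 1.06 with an interval that holds 1 (0.995 to 1.13). Tmem119 (1.13), Csf1r (1.02), Cx3cr1 (0.937), C1qa (1.13), C1qb (1.14) and C1qc (1.07) did not pass either.

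Most transcription factors of microglial identity did not pass the rule either. Of 16 members 15 were measured and 2 were higher, beside 1.93% over all genes. They were Cebpb (328.2 and 904.9 CPM, 2.76), a driver of inflammatory gene expression, and Runx1 (253.3 and 400.7 CPM, 1.58), a regulator of myeloid development. Sall1, which maintains microglial identity, stood at 534.9 and 397.2 CPM (0.743) and did not pass. Runx1 sat close to the limit and did not pass under 7 of the 17 alternatives (ratios of 1.53 to 1.59).

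Cd9 and Csf1 were the activation genes that passed the rule. Of 21 members of the disease-associated and activated list 12 were measured and 2 passed, both higher, with a median log2 ratio of 0.36 against 0.11 in the other gated cells. Over all genes 1.93% were higher. Cd9, a tetraspanin of phagocytic microglia, stood at 843 CPM in the Control set and 1362 CPM in the FGR set (1.62), while its ratio in the other cells was 1.28. Cd9 did not pass with the lowest 40% of each library (1.505), without the 6% of cells with the most UMIs (1.54) or without the cells holding other types' markers (1.52). Csf1, the ligand of the receptor CSF1R, stood at 28.3 and 69.0 CPM (2.44). Cd63, another tetraspanin, had a ratio of 1.56 (lower bound of the interval just under 1.5) and Ccl6, a chemokine, 1.38, and neither passed. Under the common limit the ratio of Cd63 was 1.61 (1.54 to 1.69), which passed, so 3 genes of the list were then higher. The defining genes Lgals3, Lpl, Cst7, Spp1, Itgax and Gpnmb summed to 75.3 CPM in the Control set and 135 CPM in the FGR set, and to 79.5 and 89.8 CPM in the other cells. Their median was 0 UMIs per cell in all 4. In each set only 1 of the 6 reached 50 CPM, with 53.9 CPM (Control) and 73.4 CPM (FGR). All UMIs of Lgals3 in each set came from 5% of the cells. Of its 31 UMIs in the Control set 11 came from 1 cell, and of 144 in the FGR set 31 did.

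Among immune receptor and interferon genes 2 passed the rule, beside 1.93% of all genes. C5ar1, the receptor of complement C5a, was the only one of 14 measured complement and Fc receptor genes to pass (39.1 and 71.5 CPM, 1.83), with Cd14 at 1.47 and C3ar1 at 1.27. H2-T23 (67.5 and 115.1 CPM, 1.71) was the only one of 9 measured MHC class I genes, and without the cells holding other types' markers its ratio was 1.46 and did not pass. None of 4 measured interferon response genes passed. Among them Bst2 had a ratio of 1.36, Ly6e of 1.29 and Trim30a of 1.03. No gene of 25 lysosomal, 12 heat shock, 11 glycolytic, 24 oxidative phosphorylation, 13 mitochondrially coded, 28 ribosomal protein or 19 actin and motility genes passed. Over all genes 1.93% were higher and 0.37% lower, so none passing says little about any 1 of these lists. Marcksl1, of the actin list, came closest (92.1 and 54.8 CPM, 0.595), with the upper bound of its interval just above 1/1.5. Under the common limit its ratio was 0.533 (0.460 to 0.614), which passed as lower. Of 10 measured genes of the integrated stress response Sdf2l1, a chaperone of the endoplasmic reticulum, passed (160.1 and 268.0 CPM, 1.67).

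**Figure D4:**
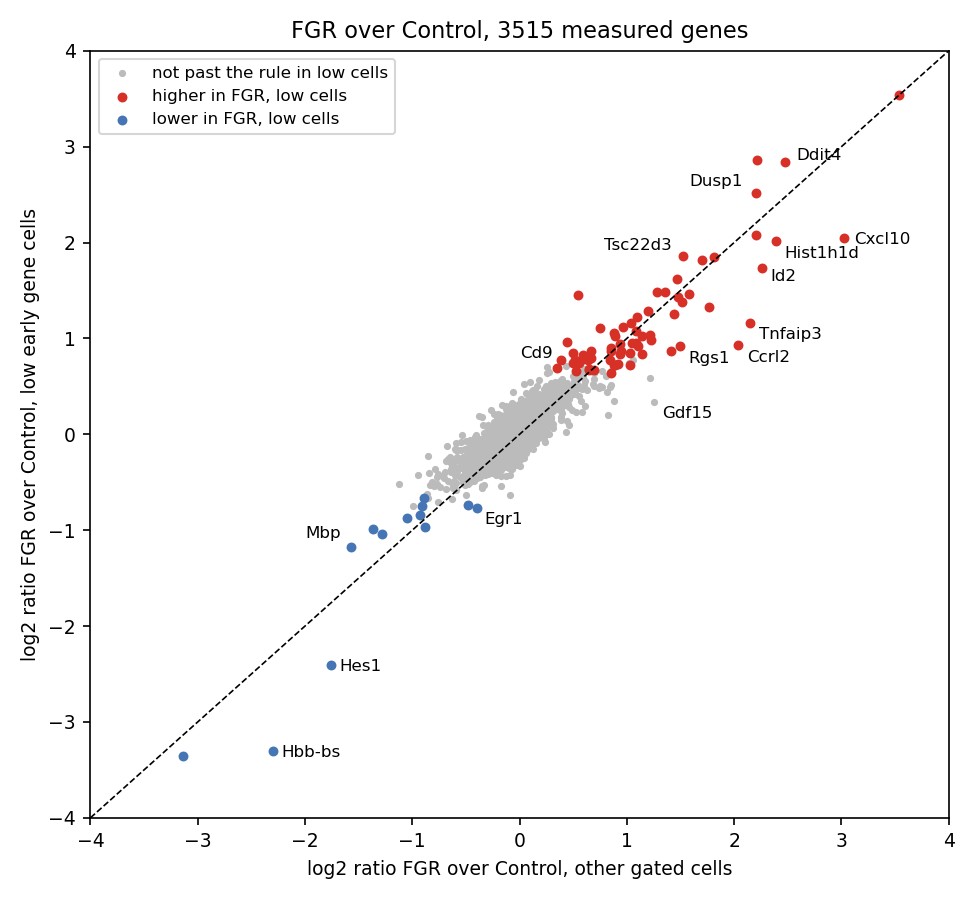
Log2 ratio of CPM, FGR over Control, of each of 3515 genes in the low early gene cells (vertical) against the other gated cells (horizontal); red and blue points passed the 1.5-fold interval rule in the low early gene cells and the dashed line marks equal ratios. Ddit4, Dusp1 and Tsc22d3 lie above the line, and Ccrl2, Tnfaip3, Cxcl10 and Id2 below it.

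A few differences between the libraries depended on where in the early gene range a cell lay. The ratio of FGR over Control was compared between the set and the other cells as a ratio of ratios, whose interval (counting error only) lay below 1/1.5 for 4 genes and above 1.5 for 1. The 4 were Ccrl2 (0.463, 0.422 to 0.508), Tnfaip3 (0.505, 0.453 to 0.563), Cxcl10 (0.509, 0.429 to 0.603) and Gdf15 (0.530, 0.454 to 0.619), a stress-induced cytokine gene. All UMIs of Gdf15 in the set came from 5% of the cells in each library (42 of 416 UMIs from 1 cell in the FGR set). The 1 above was the predicted gene Gm43813 (1.87, 1.61 to 2.18). These 5 were singled out after their values were seen.

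Gated cells of each library were also divided by early gene share into 5 groups of equal size, of which the first is the set. The upper limit of each group lay at a higher share in the FGR library. The ratio of Ccrl2 was 1.904, 2.78, 3.83, 5.25 and 7.07 from the lowest group to the highest, that of Tnfaip3 went from 2.24 to 5.18, and that of Cxcl10 from 4.14 to 9.57. For Ccrl2 the 2 libraries moved apart: its Control level was 92.0 CPM in the lowest group and 34.4 CPM in the highest, and its FGR level 175.2 and 243.7 CPM. Rgs1 (1.89 to 3.84), Id2 (3.32 to 5.46) and Gdf15 (1.27 to 3.58) also had their smallest ratio in the lowest group.

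Hes1 ran from 0.188 in the lowest group to 0.505 in the highest, so its difference was widest in the set. Its Control level was 316.1 CPM in the lowest group and 98.9 CPM in the highest, while its FGR level was 59.6 and 49.97 CPM. The ratio of Ddit4 was 7.15 in the lowest group and 5.66 in the highest, that of Dusp1 5.74 and 4.23, and that of Tsc22d3 3.62 and 2.95. Cd9 ran from 1.62 to 1.22. P2ry12 stayed between 0.778 and 0.814 in all 5 groups. Genes passing the rule numbered 68 higher and 13 lower in the lowest group and 85 higher and 69 lower in the highest.

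**Figure D5:**
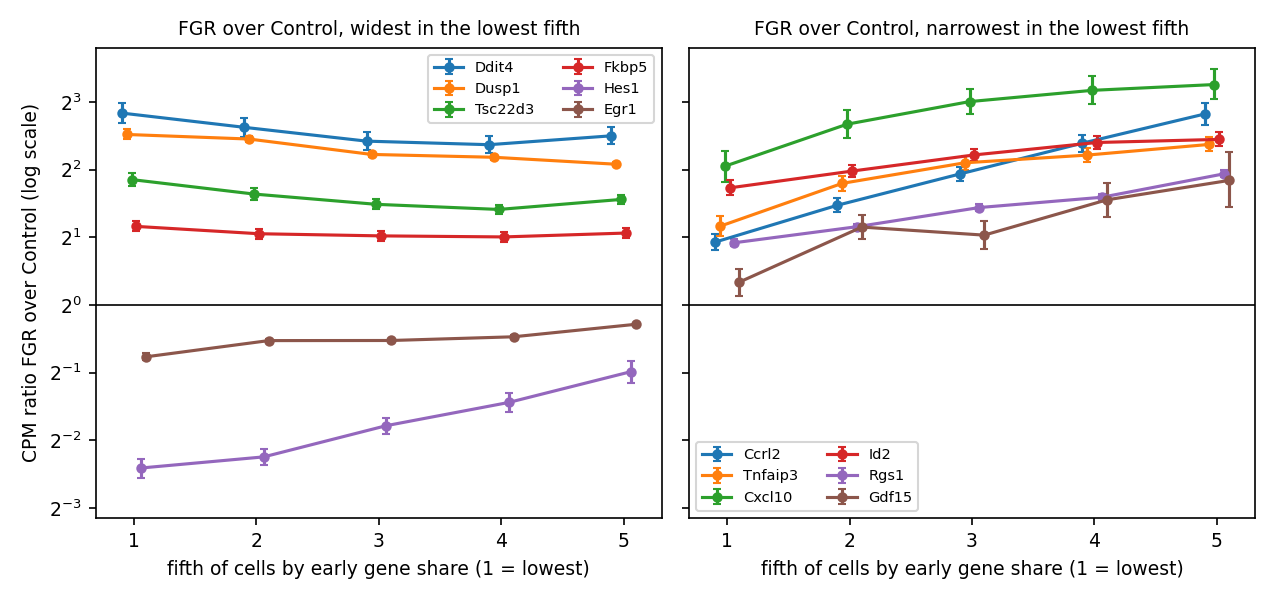
CPM ratio of FGR over Control (log axis) of 6 genes each whose difference was widest (left) or narrowest (right) in the lowest of 5 equal groups of gated cells ordered by early gene share, with 95% intervals for counting error. Hes1 runs from 0.188 to 0.505 and Ccrl2 from 1.904 to 7.07 between the lowest and the highest group.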

How the data were processed

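The authors deposited unfiltered matrices of UMI counts, not normalised, which came from Cell Ranger 4 per the file headers. The submitters' processing notes list Cell Ranger 3.0, Seurat 5.0 and build mm10 instead, a mismatch in version. The chemistry was the 3′ v2 kit per the labels' protocols, and strand use in counting is not stated there. The matrices held 58988805 UMIs (Control) and 50833332 UMIs (FGR). Of 10706 and 8647 barcodes with at least 1500 UMIs, 3 and 2 were removed for few genes, 16 and 27 for mitochondrial share and 189 and 320 by the microglial gate. The sets held 10239290 and 7940418 UMIs.

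Counts were summed over the cells of each set and scaled to CPM (numpy 2.4.6, scipy 1.17.1, pandas 2.3.3). Ratios have exact conditional binomial intervals and levels exact Poisson intervals, at 95%. PCR and variation between animals are not in them. A gene passed at 50 CPM on at least 1 side with the interval beyond 1.5 or 1/1.5. No test was possible with 1 library per group. No doublet caller was used, so doublets may remain, and 1 alternative dropped the 6% of cells with the most UMIs. Free RNA was estimated from barcodes of 10 to 100 UMIs. Coordinates are from the GENCODE annotation of GRCm38, which held 32158 of 32285 gene IDs.

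The members and gene lists were chosen with earlier results of these data known. Genes named are those of the rule and gate, Slc2a5 and P2ry13, the 12 furthest in each direction past the rule (without predicted, ribosomal and sex-linked genes), the 10 lowest of the set against the other cells, and up to 4 members of each list. The remaining names were chosen after their values were seen. A few genes that this selection would name are not reported here. The scripts were tested on simulated counts.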

Additional observations from a re-analysis of the deposited data

How the results depend on the processing

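The 42 named genes that passed the rule were recomputed under 17 alternatives, of which 2 (leaving out barcodes gated in both libraries, or cells with under 5 UMIs of Slc2a5, P2ry13 and P2ry12) were chosen after seeing the data. No direction turned, 650 of 714 calls were kept and 17 genes kept theirs under all alternatives. Counts of genes moved as follows. With a fold of 2, 26 genes were higher and 3 lower in FGR, and 25 were lower in the set than in the other cells. With the mean of per-cell CPM, 2 genes were higher in the set and 22 lower in FGR. With a minimum of 20 CPM, 1 was higher in the set and 22 lower in FGR. With the lowest 10% of each library, 1 was higher in the set. Without cells holding at least 5 UMIs of other cell types' markers, 8 were lower in FGR. Beside the fold of 2 and the losses given in the report, further calls were lost. Fosb (1.63), Zfp36 (1.46) and Sdf2l1 (1.63) lost theirs with the lowest 10%, and Egr1 (0.674) with the lowest 40%. Hbb-bs lost its call with the lowest 40% (0.251), a minimum of 3000 UMIs (0.105) and ranking after thinning (0.134). Atf3 (1.63), Zfp36 (1.39), Mbp (0.775) and Hbb-bs (0.270) lost theirs without the cells holding other types' markers. The Control level of Hbb-bs in the set, 50.9 CPM, lay just above the 50 CPM minimum, so its losses need not mean a smaller difference.

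The glucocorticoid median log2 ratio was 0.99 with the lowest 10%, 0.73 with 20 CPM and 0.70 with the common limit, under which the other early response median was 0.024. The homeostatic median was 0.018 with the lowest 40%, 0.057 with scaling to the median gene, 0.018 without the cells holding other types' markers and 0.057 without cells of under 5 marker UMIs. Variation between animals cannot be told apart from the group, and genes under 50 CPM were not read. No paired analysis was possible because each group is 1 library.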
